A study of Mus musculus with 4 samples.

Results

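Duplicated loci of the mouse genome, as seen by the second of the 2 categories into which the deposited reads are split, are described here. The bins were chosen by these tag counts alone: a 1 kb bin of chromosomes 1 to 19 was kept when it held 20 or more second-category tags over the 4 libraries, counting 1 tag per position and strand in each library and moving each tag by 41 bp toward the fragment centre. This rule kept 2698 bins of the 307958 that held any second-category tag, or 0.876%. The file headers do not state what sets the categories apart, and the name rests on the pattern of the tags given below.

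Chromatin of V6.5 cells was immunoprecipitated with antibody SC-899, which recognises the N-terminus of Rpb1, the largest subunit of RNA polymerase II (Pol II), and sequenced. V6.5 is a mouse embryonic stem cell line of C57BL/6-129 background. The 4 libraries, 1 per group, are named shSpt4, shSpt5, shNelfE and shControl after the short hairpin RNA, which acted on Spt4, on Spt5, on NelfE or as a control for about 4 days. All 4 cultures, the control included, received 1 µM flavopiridol for 1 h before crosslinking. Cells of the 3 knockdown libraries had spent 2 passages off feeder cells and were sequenced on one flow cell, whereas the control cells had spent 1 passage off feeders and were sequenced on another. Flow cell and passage therefore cannot be told apart from the knockdown in any ratio to shControl. The knockdown of the targeted genes was not checked here, a ratio compares 2 libraries and has no replicate check, and no background library was used, so tags in a bin were not shown to come from Pol II.

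A short read from a stretch that occurs more than once in the genome has more than one best place, and an aligner must report several, choose or discard. Such stretches arise by segmental duplication, which copies long blocks of a chromosome, by processed pseudogenes, which are short copies of spliced transcripts inserted elsewhere, and by transfer of mitochondrial DNA into the nucleus. DSIF, made of Spt4 and Spt5, and NELF, to which NelfE belongs, are complexes that act on Pol II paused near promoters, and flavopiridol blocks the kinase Cdk9, which frees Pol II from the pause.

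The duplicated bins held 202680 tags, 25% of the 811367 kept second-category tags. Most bins held few tags and a small number held very many. The median bin held 34.5 tags over the 4 libraries, with quartiles of 24 and 60, and the fullest held 2742. The 339 bins with 100 or more tags carried 55.8% of the tags in duplicated bins, and 24 bins with 1000 or more carried 20.1%. Just inside the threshold, 492 bins held 20 to 22 tags, with medians of 4.5 for shSpt4, 4 for shSpt5, 5 for shNelfE and 6 for shControl. Just outside it, 663 bins held 17 to 19 tags, with medians of 4, 4, 4 and 5.

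The share of aligned reads in the second category was close in all libraries, between 3.48% in shControl and 3.61% in shSpt5. Scaled to 1000000 kept first-category tags (normalised tags), shControl held 18651 tags in all duplicated bins together, shSpt4 17671, shNelfE 17166 and shSpt5 14871. These were 28.1%, 25.9%, 25% and 21.2% of their second-category tags, so shSpt5 was lowest by both measures. Kept first-category tags ran from 2646944 to 3170090 per library. Repeated positions made up between 32.6% (shControl) and 41.7% (shSpt5) of the deposited second-category tags in these bins.

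Duplicated bins were not spread evenly. Chromosome 17 carried 378 of them (14.0%), which was 16.3 for each 100 of its bins with 20 or more first-category tags. Chromosome 3 followed with 188 bins and 12.1% of the tags, chromosome 12 had 130 bins and 10.9% of the tags, and chromosome 13 had 160 bins and 8.12% of the tags. Chromosome 19 had the fewest, with 51. Adjacent bins joined into 2026 loci, of which 1659 were a single bin, 258 were 2 bins and 109 were 3 or more.

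The longest run lay on chromosome 17. Its 27 bins, from 14713001 to 14740000 of build mm8, held 1282 tags for shSpt4, 1172 for shSpt5, 1308 for shNelfE and 1716 for shControl, with 101 first-category tags in all. Another run on that chromosome, of 16 bins from 14744001 to 14760000, held 946, 887, 899 and 1134 tags in the same order and 2 first-category tags. The 16-bin run was thus nearly empty of first-category tags. The 101 tags of the 27-bin run stand beside a median of 4 per bin over all bins with any first-category tag. On chromosome 11 a run of 20 bins from 3023001 to 3043000 held 533, 659, 640 and 711 tags together with 1205 first-category tags, so both categories were present there.

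The tags themselves showed where the copies lie. A read placed at both members of a pair of copies leaves 1 tag at each, so the tags of one copy recur at the other at a constant offset, in the same library. For each bin the offset was sought that paired most of its tags, on the same strand for direct copies or on the opposite strand for inverted ones, after matches at nearby offsets, taken as chance, were removed. At least 50% of the tags were paired in this way at 2168 bins (80.4%), at least 90% at 1140 bins, and every tag at 732. With all offsets found, 96.2% of the tags in duplicated bins had a counterpart. The second category therefore behaved at these bins as reads with a pair of reported places, which the headers do not state.

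The partner of a bin lay on another autosome in 1115 cases (41.3%) and on the same chromosome at 10 kb to 1 Mb in 713 (26.4%). It lay over 1 Mb away on the same chromosome in 156 cases, within 10 kb in 110, on a sex chromosome in 52 and on the mitochondrial genome in 22. The remaining 530 bins had no single partner, and their tags were split over several offsets. A single offset accounted for the paired tags of 1268 bins, while 804 had 2 offsets, 416 had 3 and 210 had 4 or more. Direct and inverted copies were about equally common, with 1145 inverted bins among the paired ones (52.8%). In 1850 of the paired bins the partner bin was itself among the 2698, so most copies are counted from both sides.

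**Figure D1:**
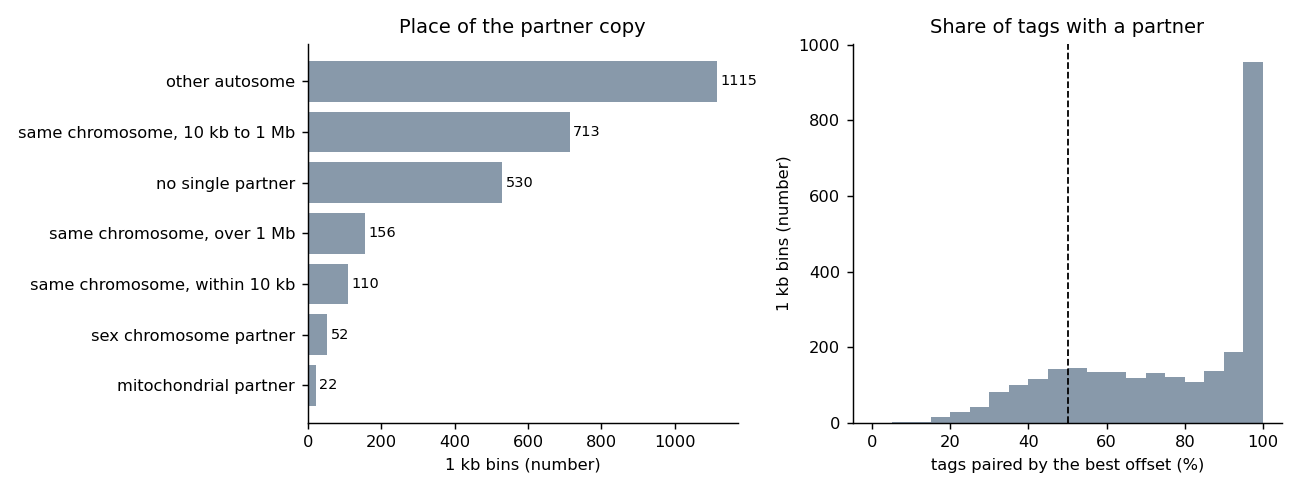
Left, number of duplicated 1 kb bins by the place of the partner copy, with 1115 on another autosome and 22 with a mitochondrial partner. Right, number of bins by the share of tags paired by the best offset in percent, with the dashed line at 50%, above which 2168 bins lie, most of them near 100%.

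Paired stretches of the same orientation that lay within 10 kb of each other at both copies were joined, which gave 982 pairs of copies. The paired stretch was short in most of them, with a median of 217 bp, and 574 pairs (58.5%) spanned less than 300 bp. At the other end, 40 pairs spanned 5 kb or more and the longest spanned 31311 bp. The stretch is measured between outermost tags. After joining it can include gaps without paired tags, so it can be shorter or longer than the copied sequence.

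The loci with most tags were pairs of near copies. On chromosome 12 the bin at 55632001 to 55633000 held 634 tags for shSpt4, 711 for shSpt5, 757 for shNelfE and 640 for shControl, and its tags recurred inverted at 55659150 to 55660122. Between them lay further bins of the same inverted pair of copies, as joined above. They held 628, 578, 678 and 628 tags at 55640001 to 55641000 and 674, 614, 716 and 668 at 55651001 to 55652000. These bins had 100% of their tags paired and at most 2 first-category tags each. Their normalised tags were near the control's level, at ratios from 0.935 to 1.34, where the bin at 55659001 to 55660000 gave the highest value, in shNelfE (95% interval 1.19 to 1.51).

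Keeping 1 tag per position and strand puts a ceiling on bins so dense. The bin at 55632001 on chromosome 12 had 7616 deposited tags, of which 2742 were kept, and over the 10 fullest bins there were 2.49 deposited tags per kept tag, against a median of 1.15 over all duplicated bins. On chromosome 3 the bin at 96571001 to 96572000 held 506, 539, 558 and 526 tags from 6034 deposited ones, and 74.1% of them recurred inverted at 96574228 to 96574660. How far this draws the ratios of single bins toward 1 was not tested.

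The fullest bins of the 27-bin and 16-bin runs on chromosome 17 were direct copies of one another, and shSpt5 and shNelfE were below the control there. The bin at 14715001 to 14716000 held 489 tags for shSpt4, 409 for shSpt5, 401 for shNelfE and 592 for shControl, and its partner stretch was 14746376 to 14747365. Its ratio to shControl was 0.989 (0.876 to 1.12) for shSpt4, 0.703 (0.618 to 0.799) for shSpt5 and 0.731 (0.642 to 0.831) for shNelfE. The bin at 14746001 gave 0.972 (0.872 to 1.08), 0.694 (0.619 to 0.777) and 0.775 (0.692 to 0.867), with largely the same reads. A pair of blocks on chromosome 13, inverted, held 272, 252, 304 and 282 tags at 21839001 to 21840000 and 256, 244, 295 and 265 at 21819001 to 21820000, with ratios from 0.909 to 1.20. Here no ratio reached the threshold of a call.

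The bin at 39455001 to 39456000 on chromosome 17 differed in kind. It held 321 tags for shSpt4, 376 for shSpt5, 357 for shNelfE and 418 for shControl, with 192 first-category tags, and no single offset paired 50% of its tags. The best, at 42.6%, led to chromosome 6, 3151052 to 3151662. Its ratios of 0.920 (0.793 to 1.07), 0.915 (0.794 to 1.05) and 0.922 (0.798 to 1.06) did not differ from 1 beyond counting error.

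First-category tags, which the rule did not use, numbered under 20 in most duplicated bins. None was found in 522 bins (19.3%), 1244 (46.1%) held 1 to 19 and 932 (34.5%) held 20 or more. Of all bins with any first-category tag, 2.27% held 20 or more, so that level was more common among duplicated bins. The median was 6 first-category tags over the 4 libraries, where the median over all bins with any was 4. The bins without first-category tags held a median of 31 second-category tags and those with 20 or more a median of 44.

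Against the control, duplicated bins were more often lower than higher in every knockdown library, and shSpt5 had the most such bins. A bin was called when its normalised tags were 2 times the control's or more, or 0.5 times or less, and the exact 95% interval of the ratio left out 1. In shSpt5, 390 bins (14.5%) were called lower and 67 (2.48%) higher. The background, 44844 bins with 20 or more first-category tags called in the same way, had 18.5% lower and 0.952% higher. In shSpt4, 140 bins (5.19%) were lower and 45 (1.67%) higher, beside 7.39% and 1.43% in the background. In shNelfE, 118 bins (4.37%) were lower and 22 (0.815%) higher, beside 5.39% and 0.988%. The lower calls were thus somewhat less common than in the background in all 3 libraries, and the higher calls of shSpt5 more common. No call was made at 2088 bins (77.4%). Of the duplicated bins, 25 (0.927%) were lower in all 3 libraries, beside 1.15% of the background, and 6 (0.222%) were higher in all 3, beside 0.0535%. These comparisons share the control library.

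The typical shift was small beside that spread. The median log2 ratio (pseudocount 0.5 tags) over duplicated bins was -0.51 in shSpt5 (95% interval over bins -0.53 to -0.46), -0.21 in shSpt4 (-0.25 to -0.19) and -0.20 in shNelfE (-0.24 to -0.18). Over the first-category bins it was -0.62, -0.28 and -0.28. The standard deviation over duplicated bins was 0.96, 0.81 and 0.72. It includes the counting error of bins with a median of 34.5 tags over the 4 libraries, and the part of that error was not tested.

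The number of calls in each direction depends on the scaling. In 447 windows of 1 Mb without any bin of 20 or more first-category tags, normalised tags stood at 1.37 times the control in shSpt4, 1.62 times in shSpt5 and 1.31 times in shNelfE. Scaled by these windows, 1130 duplicated bins (41.9%) were lower and 7 (0.259%) higher in shSpt5, beside 45.6% and 0.116% of first-category bins. In shSpt4, 422 (15.6%) were lower and 3 (0.111%) higher, beside 19.2% and 0.314%. In shNelfE, 365 (13.5%) were lower and 3 (0.111%) higher, beside 16.0% and 0.243%. The medians were then -1.20, -0.66 and -0.59, and -1.32, -0.73 and -0.66 in the first-category bins.

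The place of the partner went with the size of the difference. Bins with a partner on another autosome had the lowest median of any large class in shSpt5, -0.74 (-0.80 to -0.68), beside -0.62 in first-category bins. Of these 1115 bins, 219 (19.6%) were called lower, near the 18.5% of the background, and 3 (0.269%) higher, beside 0.952%. Bins with a partner 10 kb to 1 Mb away on the same chromosome stood at -0.36 (-0.42 to -0.26), with 77 (10.8%) lower and 9 (1.26%) higher of 713. In shNelfE the same classes had medians of -0.33 and -0.12, and in shSpt4, where the intervals over bins overlap, of -0.26 and -0.19. Bins counted from both sides of a pair share reads, so intervals over bins are no test between the classes. The 110 bins with a partner within 10 kb had medians between -0.16 and -0.03 and as many higher as lower calls in shSpt5, with 9 (8.18%) of each. Bins without a single partner stood at -0.35 in shSpt5, -0.14 in shSpt4 and -0.11 in shNelfE.

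**Figure D2:**
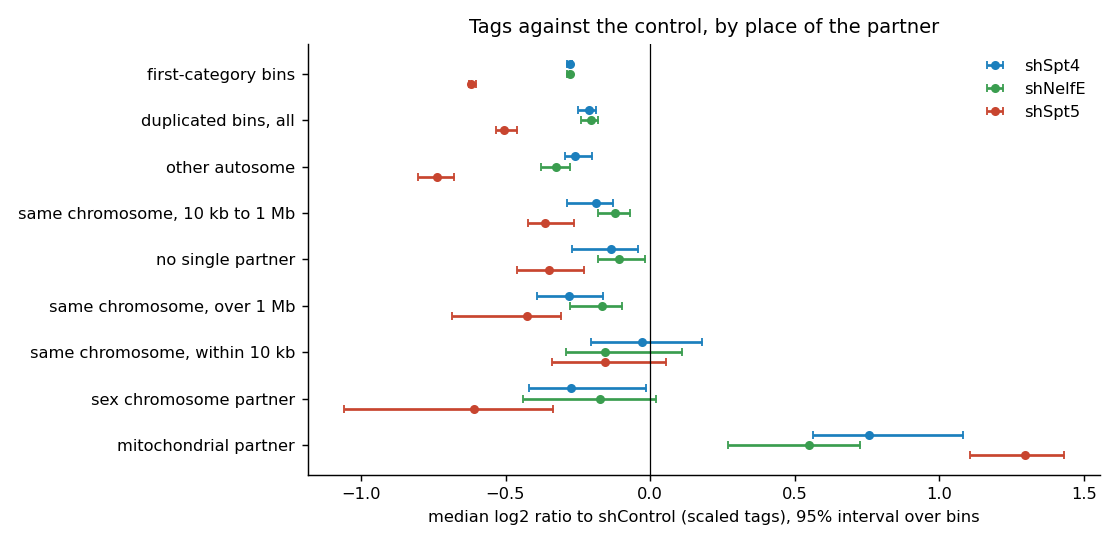
Median log2 ratio of normalised tags to shControl (horizontal axis) in first-category bins, all duplicated bins and duplicated bins by place of the partner, for shSpt4, shNelfE and shSpt5, with bars for the 95% interval of the median over bins. Bins with a mitochondrial partner lie right of 0 in all 3 libraries, and bins with a partner on another autosome reach -0.74 in shSpt5.

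The number of tags in a bin mattered as well. In bins of 20 to 29, 30 to 49 and 50 to 99 tags, the shSpt5 medians of duplicated bins were -0.46, -0.59 and -0.66, beside -0.51, -0.67 and -0.74 in first-category bins. At 100 or more tags the kinds of bin parted. The 339 duplicated bins of this class had medians of -0.06 for shSpt4, -0.33 for shSpt5 and -0.07 for shNelfE, and the 6630 first-category bins had -0.26, -0.74 and -0.42. Keeping all deposited tags moved the former to -0.16, -0.52 and -0.15 and the latter to -0.30, -0.81 and -0.46. Without the bins with a mitochondrial partner the duplicated bins gave -0.07, -0.37 and -0.08. The 24 bins with 1000 or more tags stood at 0.24, -0.03 and 0.20, and none of them was called.

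**Figure D3:**
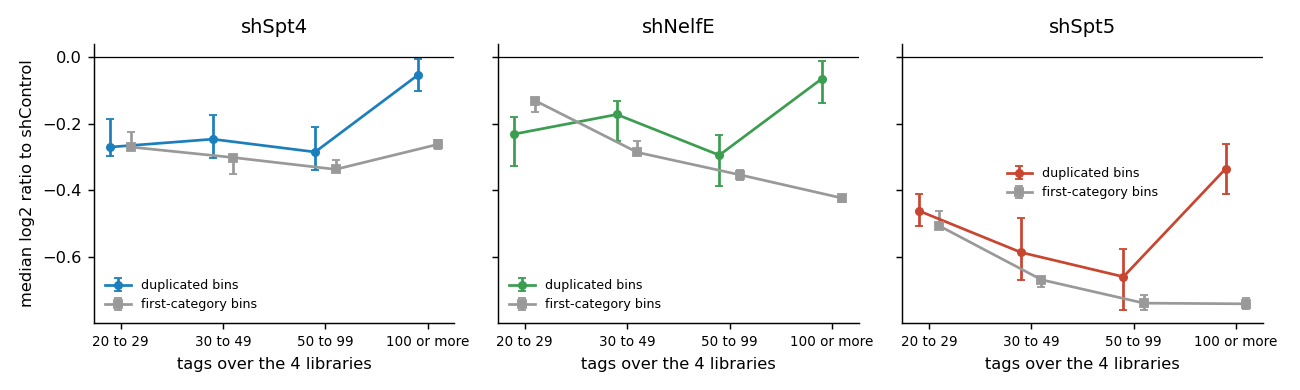
Median log2 ratio of normalised tags to shControl (vertical axis) by the number of tags in a bin over the 4 libraries, for duplicated bins (circles) and first-category bins (squares), with bars for the 95% interval of the median over bins. At 100 or more tags the duplicated bins lie above the first-category bins in each library.

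The level of first-category tags divided the bins in another way. In shSpt5 the median was -0.25 (-0.36 to -0.16) in the 522 bins without first-category tags and -0.61 (-0.69 to -0.54) in the 932 with 20 or more. In shNelfE these medians were -0.07 and -0.26, and in shSpt4 -0.26 and -0.21.

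Bins whose partner was the mitochondrial genome were the one class by partner place with all 3 medians above the control, at 0.76 for shSpt4, 1.30 for shSpt5 and 0.55 for shNelfE. Nuclear stretches of this kind are old insertions of mitochondrial DNA, and a read that fits both places cannot be assigned to either. The 22 bins held 1200 tags for shSpt4, 1990 for shSpt5, 1080 for shNelfE and 837 for shControl. That gave ratios of 1.72 (1.57 to 1.88), 2.42 (2.23 to 2.63) and 1.39 (1.27 to 1.53). First-category tags on the mitochondrial genome itself numbered 1323, 2056, 1080 and 893, with ratios of 1.77 (1.63 to 1.93), 2.34 (2.16 to 2.54) and 1.30 (1.19 to 1.43). The order of the libraries was the same in both categories. A stretch of 5 bins on chromosome 1, 24565001 to 24570000, and one of 3 bins on chromosome 2, 22440001 to 22443000, held 2193 and 1156 of these tags, and all 8 bins paired inverted with the mitochondrial genome. The bin at 22440001 alone held 196, 307, 155 and 134 tags. Of the 67 higher calls in shSpt5, 15 were in this class, and of the 45 in shSpt4, 5 were.

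Bins at the start of a chromosome also stood high. Mouse chromosomes have their centromere at this end, and its repeats are poorly assembled. Within 100 kb of the first first-category tag there were 90 duplicated bins on 11 chromosomes, with medians of 0.61 (0.09 to 0.82) for shSpt4, 0.52 (0.12 to 0.78) for shSpt5 and 0.29 (0.11 to 0.50) for shNelfE. The 128 first-category bins at the same ends were above the control too, at 0.26, 0.35 and 0.25. These bins made 10 of the 45 higher calls in shSpt4, 14 of the 67 in shSpt5 and 4 of the 22 in shNelfE.

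The lowest ratio in shSpt5 among bins with at least 50 tags in both libraries together was at a pair on chromosomes 2 and 9. At chromosome 2, 8960001 to 8961000, there were 20 tags for shSpt4, 10 for shSpt5, 27 for shNelfE and 60 for shControl, and 97.0% of them recurred at chromosome 9, 96920222 to 96920475, over 254 bp. The ratios were 0.399 (0.228 to 0.672), 0.170 (0.0774 to 0.334) and 0.486 (0.296 to 0.777), so every knockdown library was below the control. The copies differed in their first-category tags, with 3 in the chromosome 2 bin and 288 in the chromosome 9 bin. The latter were 63 for shSpt4, 34 for shSpt5, 80 for shNelfE and 111 for shControl, a ratio of 0.312 (0.206 to 0.461) in shSpt5. Both categories were thus called lower in shSpt5.

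Other low bins had the same layout of a busy copy and a quiet one. At chromosome 1, 158360001 to 158361000, there were 26, 11, 20 and 46 tags and no first-category tag, with a ratio of 0.243 (0.114 to 0.477) in shSpt5. Its partner stretch of 201 bp on chromosome 2, 151918239 to 151918439, had 441 first-category tags within 2 kb, against 4 beside the chromosome 1 copy. At chromosome 15, 38820001 to 38821000, there were 18, 9, 21 and 42 tags, a ratio of 0.218 (0.0933 to 0.454) in shSpt5, and the partner on chromosome 4 had 110 flanking tags against 11. In both cases the named bin was the quiet copy, but only 1 bin per pair was named. Most of its tags were also placed at the partner, so the low ratio cannot be assigned to either copy.

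Low bins with a near partner had tags beside both copies. At chromosome 5, 115074001 to 115075000, there were 14 tags for shSpt4, 10 for shSpt5, 25 for shNelfE and 43 for shControl. Its ratio was 0.390 (0.197 to 0.727) in shSpt4, the lowest of that library, and 0.237 (0.106 to 0.478) in shSpt5. The partner at 115084237 lay 10 kb away, and the flanks held 21 and 19 first-category tags. At chromosome 8, 114032001 to 114033000, with 19, 10, 23 and 42 tags and an inverted partner at 113981009, the flanks held 37 and 44.

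Among called bins with at least 50 tags in shNelfE and the control together, the lowest ratio of shNelfE was 0.462 (0.251 to 0.821). It lay at chromosome 4, 43021001 to 43022000, a bin with 26, 19, 18 and 42 tags. All of its tags recurred on chromosome X, 100550914 to 100551229. The bin's 105 first-category tags gave 0.422 (0.230 to 0.742) in shNelfE, close to the second-category ratio. At chromosome 13, 21787001 to 21788000, a bin chosen for its low second-category ratio, both categories were below the control in shSpt4 and their intervals overlapped. Its 26, 53, 41 and 63 second-category tags gave 0.494 (0.300 to 0.792) in shSpt4, and its 1200 first-category tags gave 0.798 (0.674 to 0.944).

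Among bins with at least 50 tags in shSpt5 and the control together, the bin with the highest ratio in shSpt5 was called in that library alone. At chromosome 4, 101405001 to 101406000, there were 12 tags for shSpt4, 45 for shSpt5, 13 for shNelfE and 11 for shControl. The ratio was 4.16 (2.12 to 8.92) in shSpt5, against 1.31 (0.528 to 3.27) in shSpt4 and 1.28 (0.527 to 3.14) in shNelfE, neither of which was called. Set directly against shSpt4, shSpt5 stood at 3.19 (1.66 to 6.62), and shNelfE against shSpt5 at 0.306 (0.152 to 0.578). The bin was chosen for its high ratio in shSpt5 and the same 45 tags enter these ratios, so they are no separate check. Of its tags 98.7% recurred directly at 101436296 to 101437232, no first-category tag lay in the bin, and the flanks of the copies held 10 and 1.

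Other high bins were above the control in every knockdown library. At chromosome 9, 3000001 to 3001000, in the first kilobase with tags, there were 82, 87, 59 and 39 tags, with ratios of 2.52 (1.70 to 3.79), 2.27 (1.54 to 3.40) and 1.63 (1.07 to 2.51). Its first-category tags of 66, 93, 53 and 42 gave 1.88, 2.25 and 1.36. At chromosome 12, 75723001 to 75724000, there were 29, 40, 27 and 10 tags, a ratio of 4.07 (2.0 to 9.12) in shSpt5, and 7 offsets, none of which paired 50% of the tags. Under the same minimum of tags, the bin of the mitochondrial class with the highest ratio in shSpt5 had 111, 188, 89 and 62 tags, at chromosome 4, 79475001 to 79476000, and a ratio of 3.08 (2.30 to 4.18). In shNelfE a single bin with enough tags was called higher, at chromosome 9, 3035001 to 3036000, with 41, 58, 53 and 27 tags and a ratio of 2.12 (1.31 to 3.50). A low count in the control enters all 3 ratios of each of these bins. Scaled by windows without enriched bins, 9 of the ratios that chose the 11 highest bins were no longer called, among them 1.84 at 3000001 on chromosome 9 in shSpt4, 1.90 at 79475001 on chromosome 4 in shSpt5 and 1.62 at 3035001 on chromosome 9 in shNelfE. The bins at 101405001 on chromosome 4 and 75723001 on chromosome 12 were still called in shSpt5, at 2.57 and 2.51.

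**Figure D4:**
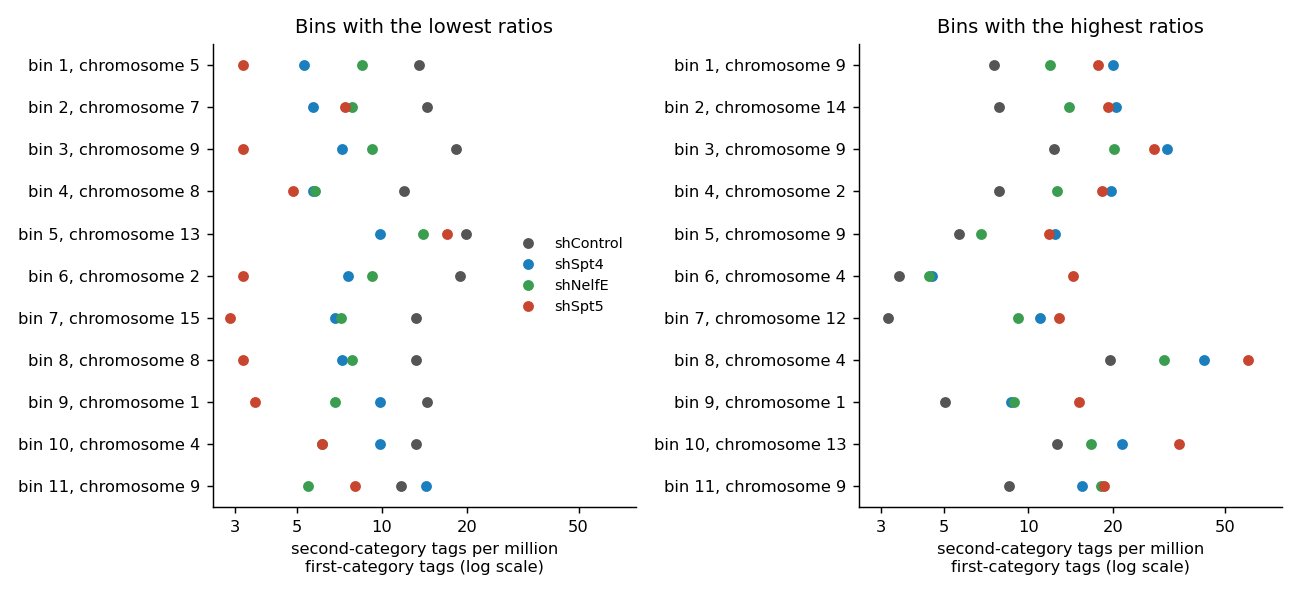
Second-category tags scaled to 1000000 first-category tags, on a log axis in each library for the 11 bins with the lowest ratios to shControl (left) and the 11 with the highest (right), 1 row per bin. Only called bins with at least 50 tags in the knockdown library and the control together were eligible. In the left panel shControl is the highest library in 10 of the 11 bins, and in the right panel it is the lowest in all 11, as the choice of bins requires for the library that chose each.

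Among the knockdown libraries, which share a flow cell, shSpt5 was lower than shSpt4 at 151 duplicated bins and higher at 48, or 5.60% and 1.78%. The first-category background of that comparison was 8.74% and 1.52%. The shNelfE library was higher than shSpt5 at 159 bins (5.89%) and lower at 50 (1.85%), beside 8.90% and 1.63%. Between shNelfE and shSpt4 there were 51 bins in each direction (1.89%), beside 2.86% higher and 2.58% lower. The shSpt5 library was thus lowest here as well, at shares of bins under the background for the lower calls.

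Tags beside the copies showed which member of a pair was busy. First-category tags within 2 kb on either side were counted for the 919 pairs whose copies lie over 10 kb apart, leaving out mitochondrial ones, and 797 pairs had 20 or more. The fuller copy took a median of 92.8% of them, with a median of 182 tags against 14 at the emptier one. A typical 4 kb of the genome with tags held 16. In 465 pairs (58.3%) at least 90% of the flanking tags lay beside 1 copy, while at 81 pairs the exact 95% interval of the share held 50%. Only 27 pairs had over 100 tags beside both copies.

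Copies on different chromosomes were more one-sided than copies on the same one. At least 90% lay beside 1 copy in 439 of 637 pairs on different chromosomes (68.9%) and in 26 of 160 on the same chromosome (16.3%), with medians of 94.7% and 69.8% on the fuller copy. Of pairs with a paired stretch under 300 bp, 379 of 543 (69.8%) were one-sided, against 86 of 254 longer ones (33.9%). The count depends on the flank, with 331 of 850 pairs at 5 kb, and with 443 of 561 when tags inside the copies were counted in place of the flanks.

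The fuller copy was the same in the knockdown libraries at most pairs. The side was chosen in shControl, in 747 pairs with at least 10 flanking tags there, and then read in the others. More than 50% of the flanking tags lay on that side in 714 pairs for shSpt4, 712 for shNelfE and 704 for shSpt5. The median share on the chosen side was 93.9%, 93.1% and 92.3%. In shControl, where the side was chosen, it was 95%.

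**Figure D5:**
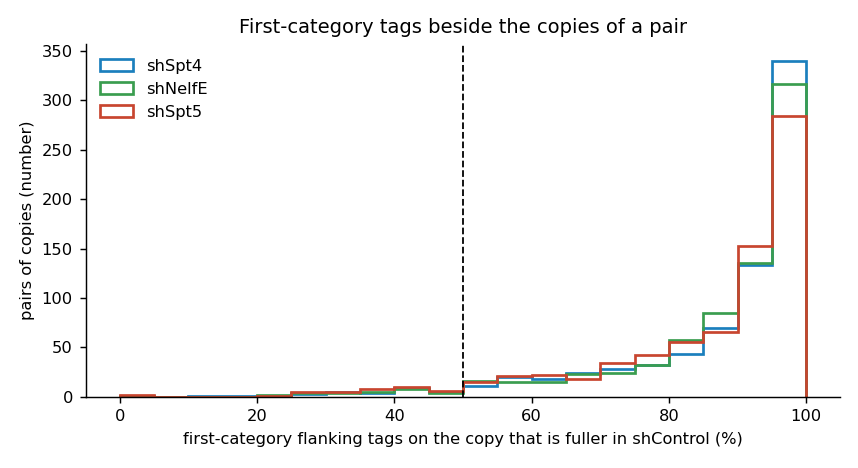
Number of pairs of copies (vertical axis) by the percent of first-category flanking tags on the copy that is fuller in shControl (horizontal axis), in each knockdown library. Most pairs lie above 90%, and the dashed line at 50% separates the few in which the other copy was fuller.

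The 5 pairs with most flanking tags all had 1 copy on chromosome 17 between 39451020 and 39455702. The 2 kb flanks of these chromosome 17 copies overlap, so the same tags are counted in more than 1 pair. The partners lay on chromosomes 6, 16, 10, 12 and 11. At the first of these the flanks held 8943 tags on chromosome 17 and 8 on chromosome 6, 0.0894% of the total (upper limit 0.176%). At the pair with chromosome 11, 103888796 to 103889222, they held 6553 and 24, and the second-category tags numbered 379. Each partner's flank held between 7 and 24 tags, near the 16 of a typical stretch, so nearly all tags around these pairs were on chromosome 17.

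First-category tags allow the same bins and pairs to be read a second time. Over the 932 bins with 20 or more of them, the log2 ratios of the categories correlated with a Spearman rho of 0.53 in shSpt5, 0.38 in shSpt4 and 0.33 in shNelfE, across bins that share the libraries and the control. The signs were the same in 78.0%, 68.0% and 69.0% of bins, and none of these bins was called in opposite directions. In shSpt5, 169 of these bins were lower in the second category and 164 in the first, and 61 were lower in both, which is 36.1% and 37.2% of the respective lists. In shSpt4, 11 bins were lower in both, of 61 in the second category (18.0%) and 44 in the first (25%), and in shNelfE 3, of 54 (5.56%) and 37 (8.11%). Over all 932 bins, 18.1% were lower in the second category in shSpt5, 6.55% in shSpt4 and 5.79% in shNelfE. The 8.11% of the first-category list in shNelfE was thus near the share over all these bins. For the 402 one-sided pairs with 20 or more tags, the median log2 ratio in shSpt5 was -0.84 in the second-category tags and -0.51 in the flanks of the fuller copy. In shSpt4 these medians were -0.27 and -0.15, and in shNelfE -0.38 and -0.35. The second-category median was the lower of the 2 in each library, and that difference was not tested.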

How the data were processed

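The authors deposited read positions as signed whole numbers, in which the sign is the strand, split into 2 read categories and without normalization, per the file headers. The headers name Bowtie and mouse build mm8, with at most 2 reported hits (-k 2, -m 2), 2 mismatches in the first 36 bases (-n 2, -l 36) and a summed mismatch quality of 70 (-e 70). No source used here gives the Bowtie version. Libraries were made with 18 cycles of PCR from sheared chromatin averaging 500 bp, and fragments of 150 to 300 bp were cut from a gel, per the labels' protocols. PCR copies are not independent molecules, so intervals cover counting error only.

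Positions were reduced to 1 tag each per strand, and tags were scaled to 1000000 kept first-category tags. Ratios carry exact (Clopper-Pearson) 95% intervals, and intervals of medians over bins are order statistics with bins as units. With 1 library per group no p-value was computed. Partner offsets were proposed by runs of 3, 6 or 12 tags repeated elsewhere. The matches at 10 offsets within 25 bp were averaged as chance and taken off, a step added after seeing the data, as were the classes by tag number, first-category tags, partner place and chromosome start. Named bins were the 10 loci with most tags, each by its fullest bin, the 5 highest and 5 lowest called ratios of each knockdown that rest on 50 or more tags of both libraries, 1 bin per pair and locus, and the 5 pairs with most flanking tags. Fewer were named where fewer qualified, and some are given in the figure alone. The rule that picks the bins, the lists and the alternatives were chosen with earlier results of these data known. No mm8 genome or annotation was at hand, so no sequence or gene name is given, and the gene table of another assembly was not used. The whole-cell-extract background was not used here. Scripts ran in Python 3.11.15 with numpy 2.4.6, pandas 2.3.3, scipy 1.17.1 and matplotlib 3.10.9, and the pair search and calls were tested on simulated data.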

Additional observations from a re-analysis of the deposited data

Results flagged for a closer look

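Second-category tags on the mitochondrial genome lie outside chromosomes 1 to 19 and were not among the duplicated bins, and they were above the control in every knockdown library. The 16 mitochondrial bins with 20 or more tags held 1229 tags for shSpt4, 2034 for shSpt5, 1101 for shNelfE and 851 for shControl. The ratio of normalised tags was 1.73 (95% interval 1.58 to 1.89) for shSpt4, 2.43 (2.24 to 2.64) for shSpt5 and 1.40 (1.28 to 1.53) for shNelfE. Most of these tags are the counterparts of the nuclear bins with a mitochondrial partner, so they are not a second measurement.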

How the results depend on the processing

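The directions of the median ratios against the control held under every alternative run for them, and the counts moved. The median of shNelfE over shSpt4, -0.02, turned to 0.05 when scaled by windows without enriched bins. Values are given for shSpt4, shSpt5 and shNelfE against the control, then for shSpt5 over shSpt4, shNelfE over shSpt4 and shNelfE over shSpt5. With all deposited tags kept, the rule gave 3206 bins, not 2698. Then 240, 689 and 226 bins were lower and 78, 133 and 59 higher, with medians of -0.27, -0.57 and -0.24. Calls among the knockdowns were 367, 198 and 422, where 1 tag per position gave 199, 102 and 209. In the highest class by tag number, lower calls in shSpt5 rose from 13.6% to 21.5% of duplicated bins. In first-category bins of that class they rose from 31.9% to 37.8%. No first-category share over all bins is given for this setting, so these counts cannot be set against the background. With a minimum of 50 tags, 857 bins remained, with 47, 190 and 45 lower (5.48%, 22.2% and 5.25%) and 27, 40 and 9 higher (3.15%, 4.67% and 1.05%). Of first-category bins with 50 or more tags, 10.7%, 33.1% and 8.18% were lower and 1.20%, 0.856% and 0.518% higher. The 857 bins had a median of -0.17 in shSpt4, and 79, 38 and 91 calls among the knockdowns. Scaling by kept second-category tags gave medians of -0.25, -0.58 and -0.25. Scaling by windows without enriched bins gave 422, 1130 and 365 lower and 3, 7 and 3 higher, with the first-category shares given above. Medians were then -0.66, -1.20 and -0.59, and there were 332 and 364 calls of shSpt5 over shSpt4 and shNelfE over shSpt5. With 1 bin per pair of copies, 243 of 1783 bins (13.6%) were lower in shSpt5, beside 18.5% of first-category bins, and 124 and 137 calls were made in those comparisons. The cause was not tested where the set of bins was unchanged. Tags left unmoved changed no count by over 1.5 times, and a grid moved by 500 bp, run only for the number of bins, gave 2704. Of 2168 paired bins, 2139 had the same best offset without shControl.

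No paired analysis was possible because each group holds 1 library, which also leaves no replicate to leave out. Called lower in shSpt5 were 87 of 1087 bins with 20 to 29 tags, 144 of 518 with 50 to 99 and 46 of 339 with 100 or more, and the part of depth in these shares was not tested. Of the named ratios, 9, all above 1, were no longer called under the scaling by windows.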
